A study of Homo sapiens with 8 samples.

Results

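The regions described are stretches of chromosome 4 that were listed as bound by eIF4G2 in control cells and that shared no base with any bound region listed in eIF4G2-overexpressing cells. They were chosen from the control list among regions that lay inside or across genes of 1 strand only. There were 686 of them, out of 914 chromosome 4 control regions over genes of 1 strand, 1185 chromosome 4 control regions in all and 1224 in the whole control list. A further 168 chromosome 4 control regions lay over genes of both strands and 103 over no gene, and these were not used. Of the 686 control-only regions, 366 lay in genes that also had an overexpression region elsewhere and 320 lay in genes that had none.

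The data are RIP-seq: RNA that came down with an antibody to eIF4G2 was sequenced. The cells were IHCF, human cardiac fibroblasts that have been immortalized. In both conditions the same antibody was used on cells infected with a lentivirus, which carried full-length eIF4G2 in the overexpression cells and a scramble control in the control cells, so by the labels the control libraries rest on the cells' own eIF4G2. Total RNA was sequenced too, which gives 8 libraries in 4 groups of 2 biological replicates. The sources used here do not give the vectors' promoter or the number of clones. The values used are 2 lists of regions, 1 per condition, and only the names of the tables tie a list to a condition. These names also contain MOV10, another RNA-binding protein, which no label mentions.

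eIF4G2 (also called DAP5 or NAT1) is a translation initiation factor of the eIF4G family. It binds eIF3 and eIF4A but lacks the site by which eIF4G1 binds the cap-binding protein eIF4E, and it is known for starting translation on a subset of mRNAs without eIF4E. In heart tissue, fibroblasts make and remodel the matrix, and on activation they raise their output of matrix, contractile and secretory proteins.

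The lists hold positions and no read count, score or value per library. The lists cannot be compared across replicates, depth is unknown, and no test was made. A region missing from a list is not shown to be unbound, and fewer bound molecules cannot be told apart from less of the RNA or from fewer reads. Intervals are 95% Wilson intervals for counting error only. They treat regions as independent although many lie side by side in 1 gene. Of 22 marker genes for cardiac fibroblasts, cardiomyocytes, endothelium and macrophages, none had a region in either list. Only 3 of them lie on chromosome 4 (PDGFRA, KDR and EMCN). VIM, POSTN, TCF21 and CDH5 lie on other chromosomes with a region in at least 1 list, and the rest on chromosomes without one. As the lists hold regions and no levels, they do not allow a check of the cell type.

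The choice of members rests on the overlap, which is therefore given as a description. The share of control regions over genes of 1 strand without a shared base was 75.1% (95% interval 72.1 to 77.8), and over all chromosome 4 control regions it was 74.5%. In the other direction, 139 of 390 overexpression regions over genes of 1 strand (35.6%) shared no base with a control region. At the level of genes, 205 of the 430 chromosome 4 genes with a control region (47.7%) had no overexpression region. The control list is the longer on this chromosome, 1185 regions against 491, and the shares in the 2 directions are not on equal terms. Over all chromosomes the overexpression list is the longer, with 1986 regions. Of these, 1339 lie on chromosome 18, where the control list has none. Both lists thus sit on few chromosomes, and how this bears on the control-only set was not tested.

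A few control-only regions reached upstream over the start of their gene, and the sequences there can be shown. Of the 686, 18 touched the window that RefSeq gives around a start of the same gene (GRCh38.p14), and 6 held such a window whole. These 6 belong to SRP72, an RNA-binding subunit of the signal recognition particle, MMAA, a mitochondrial protein of cobalamin metabolism, CCNA2, cyclin A2, CLCN3, a chloride and proton exchanger of endosomes, POLR2B, the second-largest subunit of RNA polymerase II, and LRPAP1, a chaperone of LDL receptor family proteins. The 250 bases upstream of 1 RefSeq start per gene are printed because all of them lie inside a region. LRPAP1 has a further RefSeq start whose window also lies whole in the same region, and it is not printed. Capitals mark matches on either strand to GGGCGG (the GC box), CCAAT or TATAAA.
SRP72 (chr4:56467367-56467616, plus strand): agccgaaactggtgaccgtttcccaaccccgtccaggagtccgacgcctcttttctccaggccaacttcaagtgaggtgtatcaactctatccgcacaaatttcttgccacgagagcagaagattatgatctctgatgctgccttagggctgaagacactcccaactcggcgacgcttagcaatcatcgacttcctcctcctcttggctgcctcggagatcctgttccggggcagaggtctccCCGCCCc
MMAA (chr4:145619135-145619384, plus strand): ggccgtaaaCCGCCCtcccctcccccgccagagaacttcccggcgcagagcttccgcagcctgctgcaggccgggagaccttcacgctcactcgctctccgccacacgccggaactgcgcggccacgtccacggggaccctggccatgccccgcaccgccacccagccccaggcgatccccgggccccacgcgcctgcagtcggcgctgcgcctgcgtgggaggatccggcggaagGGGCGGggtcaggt
CCNA2 (chr4:121823884-121824133, minus strand): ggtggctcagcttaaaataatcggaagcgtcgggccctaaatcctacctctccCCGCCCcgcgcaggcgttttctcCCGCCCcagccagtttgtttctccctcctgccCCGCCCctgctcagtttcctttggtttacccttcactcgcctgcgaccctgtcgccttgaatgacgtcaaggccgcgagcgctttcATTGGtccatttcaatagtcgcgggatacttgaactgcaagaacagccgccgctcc
CLCN3 (chr4:169620328-169620577, plus strand): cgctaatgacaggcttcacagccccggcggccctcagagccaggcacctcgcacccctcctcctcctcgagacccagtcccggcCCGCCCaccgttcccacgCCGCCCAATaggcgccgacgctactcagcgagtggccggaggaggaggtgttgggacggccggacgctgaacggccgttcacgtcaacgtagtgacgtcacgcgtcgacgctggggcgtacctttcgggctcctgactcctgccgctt
POLR2B (chr4:56978646-56978895, plus strand): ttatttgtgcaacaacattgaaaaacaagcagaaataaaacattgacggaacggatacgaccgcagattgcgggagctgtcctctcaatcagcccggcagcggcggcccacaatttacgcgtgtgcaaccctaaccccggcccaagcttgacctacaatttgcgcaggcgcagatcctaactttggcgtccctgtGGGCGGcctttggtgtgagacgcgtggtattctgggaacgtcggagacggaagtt
LRPAP1 (chr4:3532423-3532672, minus strand): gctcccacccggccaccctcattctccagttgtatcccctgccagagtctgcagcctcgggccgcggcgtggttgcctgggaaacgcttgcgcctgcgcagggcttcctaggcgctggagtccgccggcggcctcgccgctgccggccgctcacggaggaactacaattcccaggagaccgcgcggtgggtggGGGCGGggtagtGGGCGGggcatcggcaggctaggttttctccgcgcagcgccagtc
Each of the 6 printed windows held at least 1 GC box, as did 42.6% of all 35116 upstream windows of the same length in RefSeq. CCAAT was in CCNA2 and CLCN3, and in 32.0% of all windows. In CLCN3 it overlaps a GC box. TATAAA was in none of the 6 and in 10.7% of all windows. GC content ran from 54.0% in POLR2B to 74.8% in MMAA, and the median over all windows was 58.0%. These matches describe the letters in the windows and nothing about binding by a factor. Windows of other genes with a listed region were not compared, so the matches are not read as a trait of control-only regions.

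The regions over these starts reached different distances upstream. The SRP72 region (chr4:56466401-56468030) went 1216 bp beyond the RefSeq start and also covered the start of LOC124900706 on the opposite strand. The MMAA region (chr4:145618641-145620000) went 744 bp upstream, that of CLCN3 577 bp, that of LRPAP1 458 bp from its upstream start, that of CCNA2 317 bp and that of POLR2B 295 bp. SRP72 and MMAA had no overexpression region, and the other four genes had one elsewhere. Since the lists give no strand for a region, RNA from an opposite, divergent transcript cannot be told apart from RNA of the named gene.

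Control-only regions were mostly narrow. Their median width was 477.5 bp (quartiles 215 and 952.5) and their total 488 kb, against a median of 1075 bp (600 and 1705) and a total of 289 kb for the 228 control regions that overlapped an overexpression region. A wider region meets another more easily, so width is not independent of the choice. Of control regions up to 215 bp wide, 185 of 207 (89.4%) were control-only, and of those over 2000 bp, 30 of 64 (46.9%). Within the control-only set, regions in genes without an overexpression region had a median width of 600 bp (400 and 1075) and those in genes with one 430 bp (215 and 807.5).

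The widths follow a grid. Every chromosome 4 region of both lists starts and ends on a grid of 200 bp or of 215 bp. The sources used here do not say what the grids stand for. Of the control-only regions, 316 had both ends on the 215 bp grid, 191 had both on the 200 bp grid and 179 had 1 end on each. A single 215 bp bin made up 180 of the control-only regions (26.2%, 23.1 to 29.7) and 22 of the overlapping control regions (9.65%, 6.46 to 14.2). On chromosome 4 the overexpression list held no region under 400 bp among 491, whereas the control list held 273 of 1185 (23.0%). The narrow width was not missing from the overexpression list as a whole, since 820 of its 1339 regions on chromosome 18 (61.2%) were under 400 bp. The part of this difference in the control-only set was not tested beyond leaving narrow regions out. With regions of at least 400 bp only, 500 of 706 control regions over genes of 1 strand were control-only. With only regions of 215 bp removed, an alternative added after the data were seen, it was 506 of 712.

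**Figure D1:**
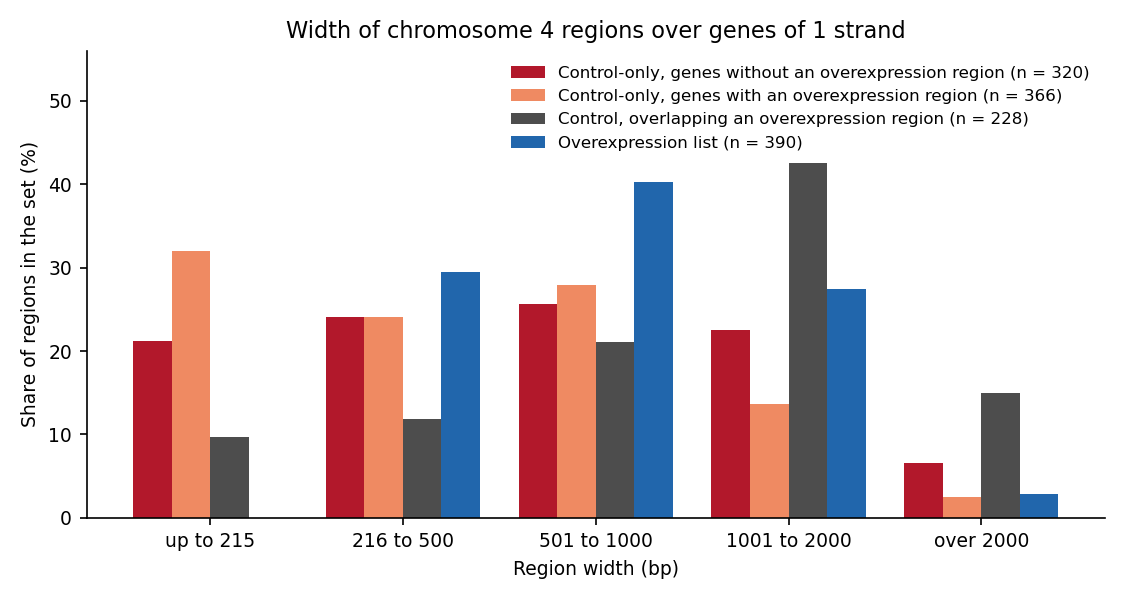
Share of chromosome 4 regions (%, vertical axis) in 5 classes of width (bp, horizontal axis) for the 2 control-only sets, the overlapping control regions and the overexpression regions, all over genes of 1 strand. Regions up to 215 bp made up 21.2% and 32.0% of the control-only sets, 9.65% of the overlapping control regions and none of the overexpression regions, while 57.5% of the overlapping control regions lie in the 2 widest classes.

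Along their genes, control-only regions gathered at the 3′ end. The midpoint of 213 regions (31.0%, 27.7 to 34.6) lay in the last 10% of the gene span, taken over all listed transcripts of the gene, and that of 89 (13.0%, 10.7 to 15.7) in the first 10%. The share in the last 10% was 38.8% (33.6 to 44.2) in genes without an overexpression region and 24.3% (20.2 to 29.0) in genes with one. It was 38.6% (32.5 to 45.1) for control regions that overlapped an overexpression region and 30.2% (23.2 to 38.3) for overexpression regions without a control overlap. Position along the gene did not itself choose the members. Regions over no gene and over genes of both strands were left out, however, which can bear on the shares at gene ends. Regions of 1 gene are not independent in position, and no test of these differences was made. Control-only regions that lay strictly inside every listed transcript they touched numbered 450 (65.6%), against 103 of 228 overlapping regions (45.2%). Transcripts of the same gene that a region did not touch were not counted here. The overlapping regions were also the wider ones, and exons were not used here. Midpoints of 3 regions lay before the gene span and of 8 past it, and these were placed at its ends.

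**Figure D2:**
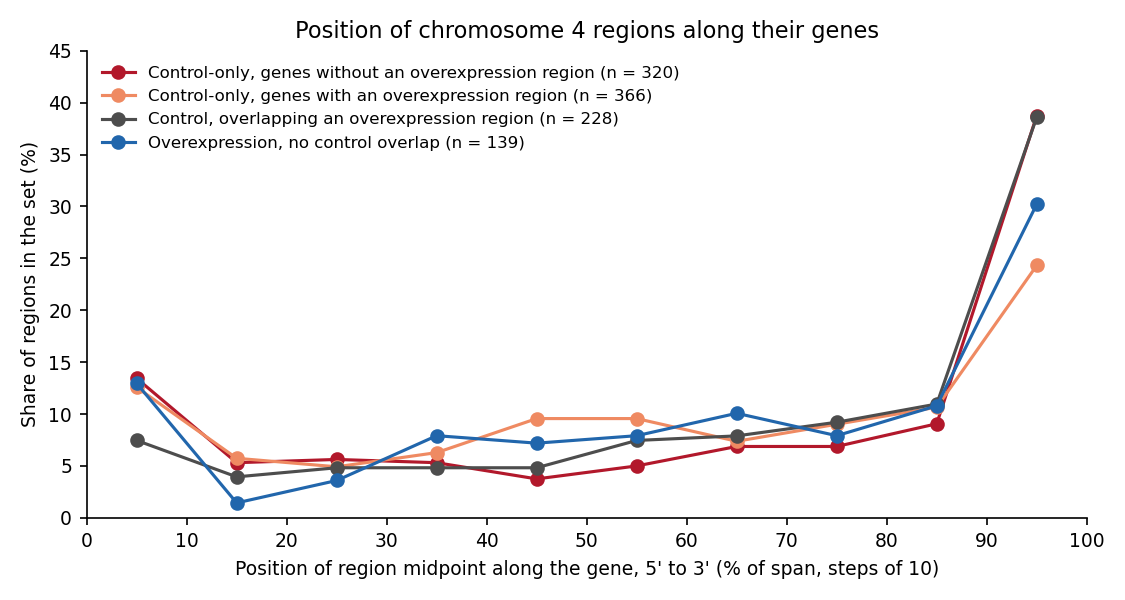
Share of regions (%, vertical axis) in 10 equal parts of the gene span from 5′ to 3′ (% of span, horizontal axis), by the midpoint of the region, for the control-only sets, the overlapping control regions and the overexpression regions without a control overlap. In each set the last part holds the most regions, 38.8% for control-only regions of genes without an overexpression region and 24.3% for those of genes with one.

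The 686 regions lay over 290 genes, of which 266 had a name; 29 regions lay over more than 1 gene. RefSeq lists 246 of the genes as protein-coding, 31.9% of the 770 coding genes of chromosome 4, and 127 of these, 16.5% of the 770, had no overexpression region. Genes without an overexpression region numbered 157 and had a median of 2 control-only regions summing to 1360 bp, and 66 of them had a single one. Genes with an overexpression region numbered 133 and had a median of 2 control-only regions summing to 1230 bp, beside a median of 4 control regions in all. Their median span was 66.0 kb, against 48.2 kb for the genes without.

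Among genes without an overexpression region, the widest control-only region was that of PDLIM5, a PDZ and LIM domain protein that ties kinases to actin structures. It spans 4600 bp at chr4:94664201-94668800, over the 3′ end of the gene, and the other 2 regions of PDLIM5, of 430 and 400 bp, lie near the middle of the span. The nearest overexpression region was 372295 bp away. GRPEL1, a nucleotide exchange factor of mitochondrial HSP70, had a region of 3290 bp across its 3′ end (chr4:7058601-7061890), 1 of 400 bp inside it and 1 of 910 bp at its 5′ end. EIF4E, the cap-binding protein itself, had its only region over the 3′ end as well (chr4:98879146-98881600, 2455 bp). ANTXR2, a receptor for anthrax toxin that binds matrix proteins, had a single region of 2915 bp (chr4:79904201-79907115) at 97.4% of its span. So had MRFAP1, whose region of 2895 bp is longer than the 2.655 kb gene and covers a listed transcript whole.

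The widest regions of other genes in this set lay at various points of the span. The widest region of HNRNPDL, an hnRNP that binds AU-rich RNA and regulates splicing, covered 3010 bp at chr4:82427131-82430140, centred at 23.1% of the 7.90 kb gene, and a second of 2365 bp was centred at 62.6%. PLRG1, a core spliceosome protein, had 3225 bp at chr4:154535981-154539205, centred at 83.2%. TMEM192, a lysosomal membrane protein, had 2815 bp at chr4:165074401-165077215, inside the gene at 96.2% of a span of 138 kb.

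Of the genes without an overexpression region, ANXA5, NEK1 and LYAR had the most control-only regions, and SEC24D, SEC31A and SNX25 followed with 7 each. ANXA5, annexin A5, which binds phosphatidylserine in the presence of calcium, had 10 regions summing to 6560 bp in 29.05 kb. They formed 3 clusters, between 5.20 and 7.99 kb, 18.4 and 19.9 kb, and 24.2 and 29.1 kb from the 5′ end. NEK1, a kinase of cilia and the DNA damage response, also had 10, but over 220 kb and summing to 4375 bp, and all lay in the first 106 kb. LYAR, a nucleolar zinc finger protein that takes part in ribosome biogenesis, had 8 regions summing to 7305 bp in 22.5 kb, from 0.259 kb to the 3′ end. In SEC24D, a cargo-binding subunit of the COPII coat, the widest of the 7 covered 2800 bp at chr4:118734201-118737000.

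Most genes with both kinds of region also had a shared one. Of the 133 genes, 97 (72.9%, 64.8 to 79.8) also had a control region over genes of 1 strand that overlapped an overexpression region, and only 20 had no overlapping control region of any kind. From a control-only region to the nearest overexpression region of the same gene there was a median of 4535 bp (quartiles 1075 and 17991.2), and 87 of 366 regions (23.8%) were at most 1000 bp away. For regions in genes without an overexpression region, the median distance to any overexpression region was 135987.5 bp, and 0 of 320 were within 1000 bp; the split by gene itself sets these regions farther away. Total control length exceeded overexpression length in 112 of the 133 genes and was smaller in 21. The choice of genes with a control-only region, like the longer control list on this chromosome, pushes this count towards control, so nothing is read from it.

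The widest control-only region in these genes was that of LETM1, a cation exchanger of the inner mitochondrial membrane, with 3225 bp across the 3′ end at chr4:1811376-1814600, where the nearest overexpression region lay 2000 bp away. BOD1L1, which protects replication forks, had 3010 bp at chr4:13613371-13616380, and YTHDC1, a nuclear reader of m6A, 2885 bp at chr4:68336801-68339685. Both were centred towards the 5′ end, at 21.8% and 29.8% of the span. LIAS, lipoic acid synthase of mitochondria, had 2730 bp centred at 11.6% of its span. PDS5A, a regulator of cohesin, had 2365 bp near its 3′ end (90.9%), and SH3RF1, a scaffold and ubiquitin ligase of the JNK pathway, 2325 bp at 99.3%. For PAICS, a bifunctional enzyme of purine synthesis, a control-only region of 2795 bp at chr4:56459216-56462010 abutted an overexpression region with 0 bp between them.

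WDR1, which speeds actin disassembly with cofilin, had 10 control-only regions summing to 7085 bp, 4 of them between 0.124 and 3.99 kb and 6 between 22.3 and 29.8 kb. Its 3 overexpression regions, summing to 1445 bp, began at 30.1 kb, and 2 of them overlapped a further control region at 30.2 to 31.3 kb. The widest control-only region (3000 bp, chr4:10087401-10090400) ended 600 bp before the first of them, with a 215 bp control-only region in between. ANKRD17, an ankyrin repeat protein of the nucleus, had 13 control-only regions with 6740 bp, 5 overlapping ones and 8 overexpression regions. All but 1 of the 13 lay between 113 and 181 kb of its 185 kb, among the shared regions. NSD2, a histone H3 lysine 36 methyltransferase, had 10 control-only regions with 8440 bp; the 4 between 46.8 and 52.9 kb lay over 10 kb before the first overexpression region, at 64.9 kb, and 3 lay just before the shared regions of the 3′ part. CENPE, a kinesin of the kinetochore, had 9 with 4455 bp, as many as FAM114A1, IGFBP7, RFC1 and ZFYVE28, spread from 16.9 to 89.6 kb on both sides of overlapping regions between 47.9 and 57.8 kb.

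**Figure D3:**
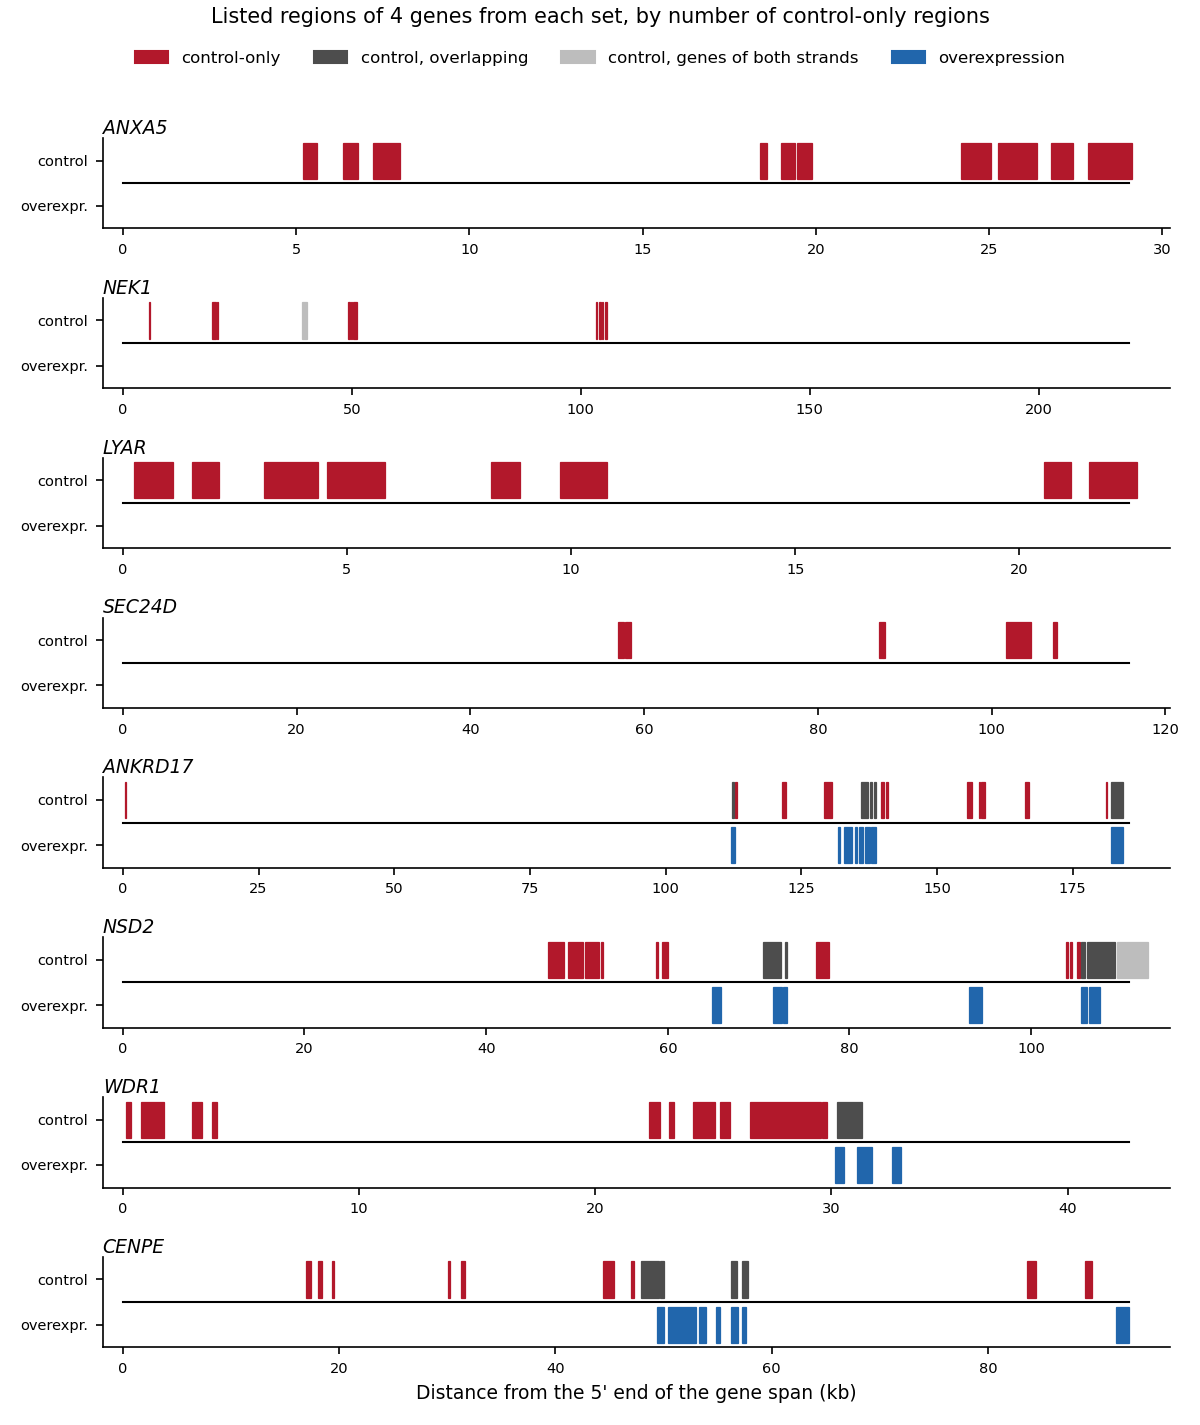
Listed regions along 8 genes, the first 4 by number of control-only regions in each set with ties taken by name; the horizontal axis is the distance from the 5′ end of the gene span in kb, on a scale of its own for each gene, with control regions above the line and overexpression regions below it. ANXA5, NEK1, LYAR and SEC24D have no overexpression region, and in ANKRD17, NSD2, WDR1 and CENPE control-only regions stand beside regions that overlap; narrow regions are drawn with an outline that widens them slightly.

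The edge of the rule was narrow for some members. Just inside it, 13 control-only regions abutted an overexpression region with 0 bp between, among them regions of CCNI, a cyclin of uncertain function (430 bp), CDKN2AIP, a regulator of the p53 pathway (430 bp), and the noncoding CTBP1-DT (215 bp). In genes without an overexpression region, the closest were those of GRPEL1 at 1400 bp, PDE6B at 2015 bp and SRP72 at 2025 bp. Just outside it, a 215 bp region of ELOVL6, a fatty acid elongase, overlapped by 50 bp, an 860 bp region of the ribosomal protein gene RPL34 by 130 bp and a 215 bp region of FAM193A by 135 bp.

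By function, 297 genes of chromosome 4 were sorted into 11 lists, some genes into more than 1, and 150 of them had a control-only region. The lists were put together with earlier results of these data known, so their shares can be set against the 31.9% of all coding genes only as a description. Of all coding genes with a control-only region, 51.6% had no overexpression region.

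The secretory pathway list stood at 18 of 28 genes with a control-only region, 15 of them without an overexpression region. SEC31A, the outer COPII coat subunit, had 7 regions (5410 bp), and SPCS3, a subunit of signal peptidase, had 3 (5250 bp), 2 of which were 2365 bp wide. USO1, a tether of Golgi vesicles, had 4 regions (2520 bp), DNAJB14, a chaperone of the endoplasmic reticulum, also 4 (2320 bp) and SEC24B 2 (880 bp). The 3 genes with an overexpression region were CLCN3, PI4K2B, a phosphatidylinositol kinase, and TMEM165, a Golgi ion transporter.

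In the translation list, 17 of 20 genes had a control-only region, 8 without and 9 with an overexpression region. MRFAP1, counted among the 8, is not known as a translation gene. EIF4E, LARP1B, an RNA-binding protein of the LARP family with 3120 bp, and G3BP2, a stress granule protein with 3025 bp, were among the 8. The ribosomal protein genes RPL9 (1430 bp), RPS3A (645 bp) and RPL34 (430 bp) were among the 9. In the RNA processing list it was 13 of 21, 7 without an overexpression region. As put together, this list also holds CCNI, which is among the 13, and QDPR, a metabolic enzyme with no control region, neither of which is known as an RNA processing gene. The 7 held HNRNPDL (6080 bp), PLRG1 (3625 bp), SLBP, which binds histone mRNA (1660 bp), and LSM6, a ring protein of mRNA decay and of the U6 snRNP (1430 bp).

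Cell cycle genes showed the opposite split: 21 of 25 had a control-only region, and 14 of these also had an overexpression region. RFC1, the large subunit of the clamp loader, had 9 control-only regions (4165 bp). It had 6335 bp of control regions in all and 2320 bp in the overexpression list. In the same order, TACC3, a spindle protein, had 3120, 16050 and 4210 bp. NCAPG, a condensin subunit, had 830, 4050 and 5110 bp. HAUS3 and POLN share all 3 of their regions, so the count holds that stretch for both. Among the 7 without an overexpression region were PLK4, the kinase of centriole duplication (1200 bp), and MAD2L1 of the spindle checkpoint (615 bp). Transcription and chromatin genes divided in the same way, with 21 of 37, 14 of them with an overexpression region. RBPJ, the DNA-binding partner of Notch, had 5 control-only regions (4615 bp). It had 5965 bp of control regions in all and 1030 bp in the overexpression list.

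Of the actin and adhesion genes, 16 of 29 had a control-only region and 10 of these had no overexpression region. Beside PDLIM5 and ANXA5 they included FAT1, an atypical cadherin, with 5 regions (4435 bp), CAMK2D, a calmodulin kinase of heart muscle and other cells (2150 bp), and AFAP1, an actin-bundling adaptor of Src (1800 bp). Of the matrix and secreted modulators 3 of 28 had one, ANTXR2, IGFBP7 and LRPAP1, and 22 had no region in either list. Which genes of this list the cells express was not tested, so the share is not read as a trait of matrix genes. IGFBP7, a secreted binder of insulin-like growth factors, had 9 control-only regions (6095 bp). It had 9775 bp of control regions in all and 4595 bp in the overexpression list. Among growth factors and signalling genes it was 11 of 37, 9 without an overexpression region. They included GAB1, a docking protein of receptor kinases (2505 bp), PDGFC, a platelet-derived growth factor (1720 bp), and the chemokine CXCL8 (1350 bp). FGF5, a fibroblast growth factor, had 3135 bp of control-only regions, 11175 bp of control regions in all and 7030 bp in the overexpression list. For RGS12, a regulator of G protein signalling, these lengths were 2230, 4595 and 4625 bp.

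In the mitochondrial list, 16 of 26 genes had a control-only region, 9 of these without an overexpression region. As put together, the list also holds genes not known as mitochondrial, such as TMEM33 and HSD17B11, which are both among the 16. SLC25A4, the ADP/ATP carrier of heart and muscle, had 3 regions of 1720, 1505 and 800 bp, which together cover 4025 bp of a 7.12 kb gene. The ubiquitin list had 17 of 30, 8 without an overexpression region, among them RNF4, a SUMO-targeted ligase with 6 regions (4035 bp). UBE2D3, a ubiquitin-conjugating enzyme, had 6 control-only regions (2945 bp), 9240 bp of control regions in all and 5070 bp in the overexpression list. For FBXL5, which senses iron, these lengths were 2535, 3535 and 1400 bp. Of the metabolic enzymes 8 of 30 had a control-only region. ADH5, which detoxifies formaldehyde, had 4 (4145 bp), and PPAT, the first enzyme of purine synthesis and a neighbour of PAICS, 2 (2420 bp); neither had an overexpression region.

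**Figure D4:**
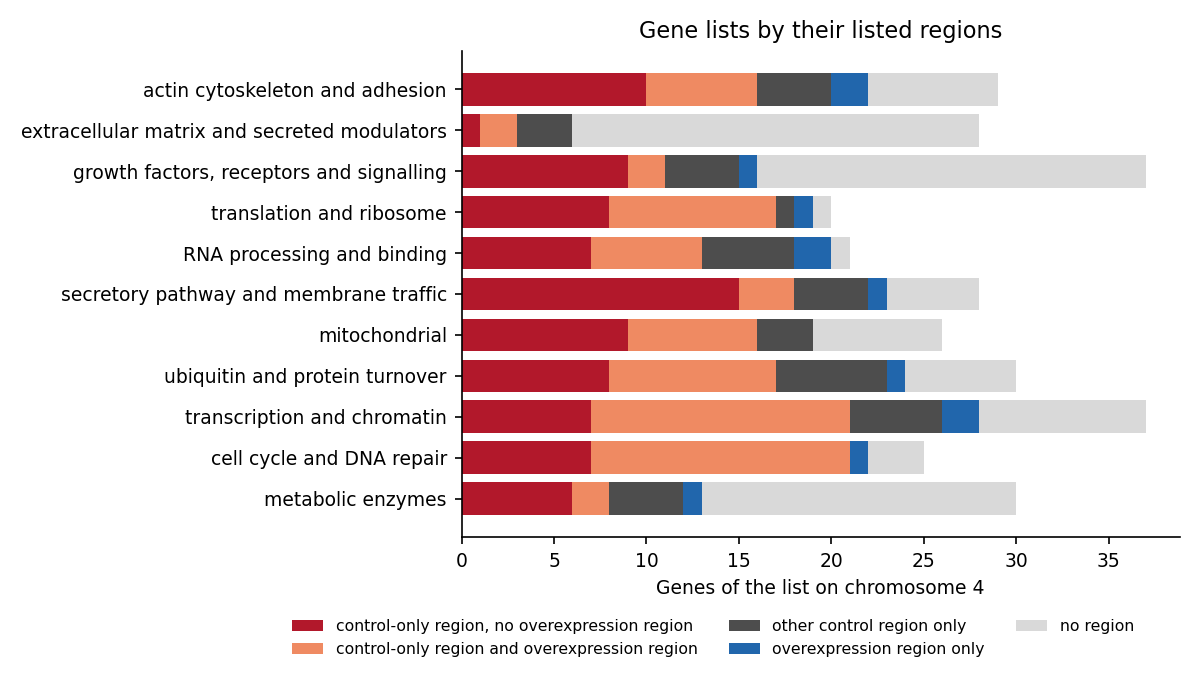
Number of chromosome 4 genes (horizontal axis) in 11 lists by function, divided by whether they had a control-only region without or with an overexpression region, another control region only, an overexpression region only or no region. The secretory list has 15 genes with a control-only region and no overexpression region out of 28, the cell cycle list 7 out of 25 and the matrix list 1 out of 28.

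Along the chromosome the control-only share of control regions over genes of 1 strand varied between windows, but the windows are small. In most of them the interval included the 75.1% of all such regions. It ran from 65.6% (53.0 to 76.3) of 61 regions between 80 and 90 Mb to 19 of 20 regions (interval 76.4% to 99.1%) between 170 and 180 Mb. In the latter window the overexpression list had 4 regions, and in the window from 90 to 100 Mb, where 24 of 26 control regions were control-only, it also had 4. By the rule, a window with few overexpression regions tends to a high share, so nothing is read from these values.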

How the data were processed

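The deposited tables, 1 for each condition, hold positions, widths and distances in bp per the file headers, with no normalized value, and list a region once for each Ensembl transcript annotated to it. GRCh38 (hg38), HISAT2 2.1.0, Trimmomatic 0.36 and bcl2fastq 2.19.0 are named in the submitters' processing notes. The sources used here do not give the region caller, its threshold or background, or whether replicates were pooled, and depth is unknown.

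A region shared a base with another at an overlap of at least 1 bp. Genes were counted by Ensembl identifier from rows where the region lay inside or across a transcript; a region over several genes counted as having an overexpression region if any of them did, and in full for each gene. Position was taken on the gene it overlapped most. Named genes were those of the 8 widest regions and the 4 with most regions in each set, the 3 nearest to the edge of the rule, and the 3 longest of each list; others were named after their values were seen. Members and lists were chosen with earlier results of these data known. Promoter windows are RefSeq's; 228 of 266 named genes had one. Overlap counting was tested on simulated data. Python 3.11.15, pandas 2.3.3, numpy 2.4.6, scipy 1.17.1 and matplotlib 3.10.9 were used.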

Additional observations from a re-analysis of the deposited data

How the results depend on the processing

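No paired analysis was possible because the lists hold no value per replicate, and for the same reason no replicate could be left out. The number of control-only regions was 686 of 914. It stayed within 1.5 times of that when an overlap of 50% of the shorter region was required (702 of 914). The same held when overexpression regions up to 1000 bp away counted as shared (599 of 914). It also held with genes of both strands (791 of 1082) and with regions of at least 400 bp (500 of 706), which change the starting number. Merging regions up to 1000 bp apart left 333, and 179 had 1 end on each grid; both settings start from fewer regions (485 and 254). The share in genes without an overexpression region, 46.6% as reported, was 53.4% with overexpression regions up to 1000 bp away counted as shared, 54.7% after merging, 50.4% without regions of 215 bp and 52.0% for regions with 1 end on each grid, and lay within its interval under the other settings. The median width, 477.5 bp, was 1000 bp by the widest region of each gene and 655 bp without regions of 215 bp, as removing narrow regions must raise it. The share at the 3′ end rose from 31.0% to 41.0% with the last 20% of the span, by construction. Of the 150 list genes, 144 had a region over 1 gene only. Settings on the grid and on 215 bp were added after the data were seen. GC content of whole regions was not run, since no genome was used here.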
